A study of Mus musculus with 24 samples.

Results

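The 10 genes described here encode enzymes of mitochondrial fatty acid oxidation: the acyl-CoA dehydrogenases Acadm, Acadl, Acadvl and Acads, the trifunctional protein subunits Hadha and Hadhb, the short-chain hydroxyacyl-CoA dehydrogenase Hadh, the carnitine palmitoyltransferases Cpt1b and Cpt2, and the electron transfer flavoprotein dehydrogenase Etfdh. They were chosen by name, and every probe set annotated with that symbol alone was taken, whatever its values. The array held such a probe set for 8 of the 10 genes (11 probe sets), of 8252 genes on the array named in that way. Hadha and Cpt1b had no probe set with their symbol alone in the annotation used and are not analysed here. Both probe sets of Acadvl were too dim to test, so that 7 members were tested among 6281 genes.

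The data were 24 Affymetrix U74Av2 arrays of mouse adipose cells in primary culture, each a bulk RNA sample of a whole culture. Cells from brown fat were collected at day 4 (n = 5 arrays) or day 7 (n = 5), and cells from white fat at day 4 (n = 8) or day 7 (n = 6). The labels call the day 4 cells non-differentiated and the day 7 cells differentiated, and name no genotype, drug or other agent in any group. The sources used here give no strain, age, sex, fat depot or differentiation medium. The labels do not tie the arrays of a group to different mice or dishes; the p-values therefore measure only array-to-array spread, part or all of which may be technical. Each label ends in an array number, used below to name arrays, whose meaning is not given. The numbers of all brown arrays come before those of all white arrays, so anything that goes with the numbers cannot be told apart from cell type.

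Long-chain fatty acids enter the mitochondrion as acylcarnitines: a carnitine palmitoyltransferase of the outer membrane makes the acylcarnitine, a translocase carries it across the inner membrane, and Cpt2 turns it back into acyl-CoA. Each turn of beta-oxidation then runs through an acyl-CoA dehydrogenase, a hydratase, a hydroxyacyl-CoA dehydrogenase and a thiolase, and the electrons taken by the acyl-CoA dehydrogenases reach ubiquinone through the electron transfer flavoprotein and Etfdh. Brown fat burns fatty acids by this route to make heat, whereas white fat mainly stores and releases them.

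The cultures carried adipocyte transcripts at both times. Signals are given on the linear MAS5 scale, as scaled but before any floor, and differences on the log2 scale after values under 8.21, the 20th percentile of all signals, were raised to it. Summed over the 8 adipocyte markers on the array, signal ran from 8845 to 14290 in brown day 4 cells and from 14420 to 17400 in brown day 7 cells. In white cells it ran from 6409 to 12150 at day 4 and from 14670 to 21020 at day 7. Adipoq, the adipocyte hormone adiponectin, had day 4 medians of 2476 (brown) and 2074 (white) and day 7 medians of 5604 and 5895, so the day 4 cultures already held adipocyte transcripts. All 5 tested brown adipocyte markers of 8 on the array were higher in brown than in white cells on both days. Of all probe sets tested, 10.8% were higher at day 4 and 12.8% at day 7. The filter on low signals kept any probe set bright on 5 arrays, so a marker bright in brown cells alone could enter this count. Zic1 did so, being at the floor on every white array, and the count is not independent support. Ucp1, the uncoupling protein that defines brown fat, was nevertheless dim: its brighter probe set had medians of 19.4 and 53.1 in brown cells at days 4 and 7 and 5.34 and 8.71 in white cells, and did not pass the filter on low signals. The ratio of the 3' to the 5' Gapdh control probe sets, a measure of RNA and cRNA length, was 0.884 ± 0.0825 (SD, n = 5) in brown day 4, 0.889 ± 0.0379 (n = 5) in brown day 7, 0.943 ± 0.0955 (n = 8) in white day 4 and 1.36 ± 0.204 (n = 6) in white day 7 arrays. White day 7 therefore stood apart from the other groups on this measure, and its part in the results below was tested only by adding the ratio to the fit.

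In brown cells 5 of the 7 tested members rose between day 4 and day 7, by 1.37-fold to 3.29-fold, and none fell. These were Acadm, Acadl, Hadhb, Cpt2 and Etfdh, which together span the acyl-CoA dehydrogenase, thiolase, carnitine and electron transfer steps. Acads and Hadh were also higher on average but did not pass the test. A member was counted as risen where limma gave an adjusted p under 0.05 (Benjamini-Hochberg over all 8397 probe sets tested, two-sided); of all probe sets tested, 6% passed as higher by the same rule and 6.05% as lower. The median difference of the 7 members was 1.05 on the log2 scale, against 0.02 for all tested genes. As these are bulk cultures, more RNA of a gene per cell and more cells that express it cannot be told apart. The arrays of the 2 days did not overlap for Acadm and Cpt2, a separation that 4.41% of all probe sets showed in that direction. The summed adipocyte markers were higher on all brown day 7 arrays than on any brown day 4 array, and their part in the rise was not tested.

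**Figure D1:**
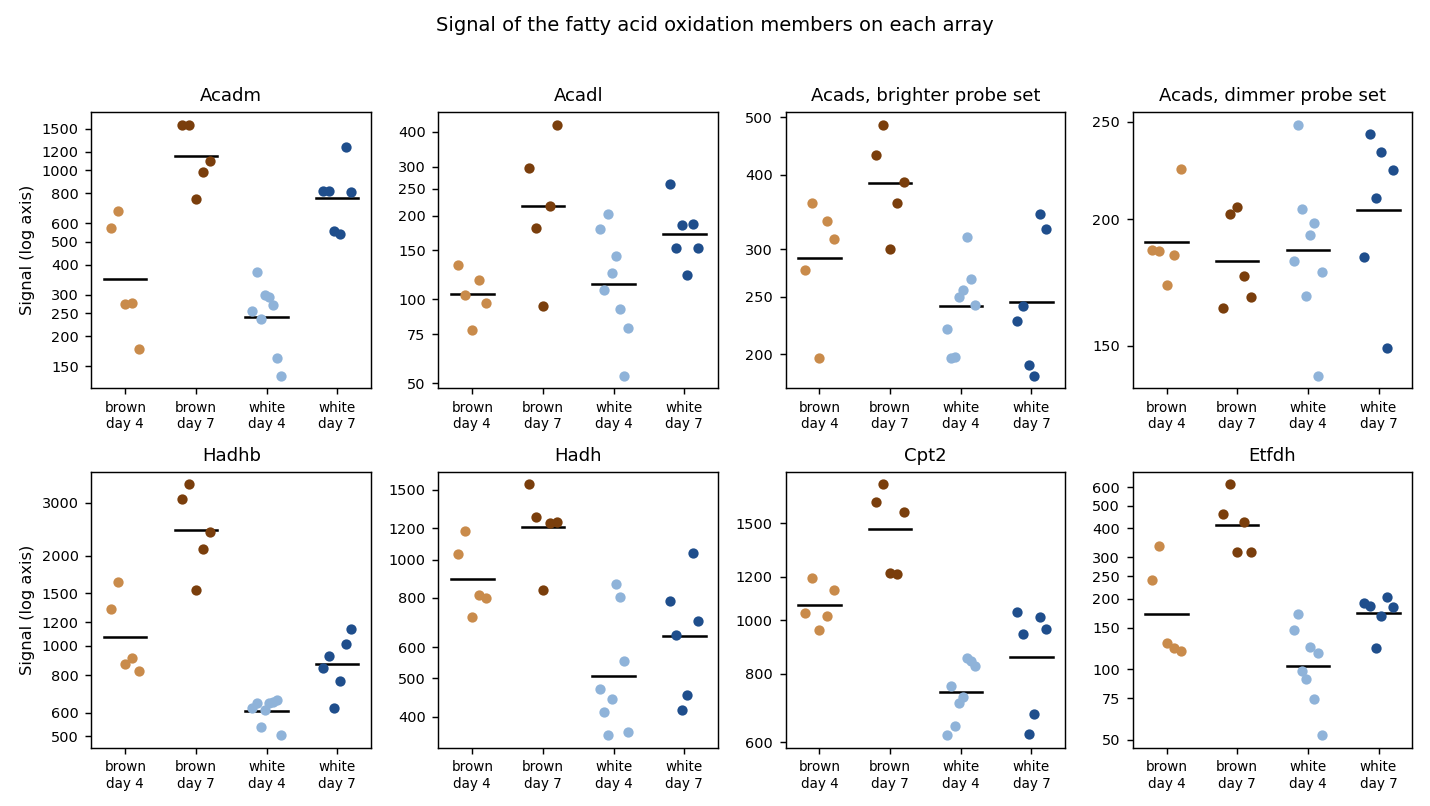
Signal of each tested member probe set on every array (log axis), by group; each point is 1 array and each bar the mean of the log2 values. Acadm separated day 7 from day 4 in both cell types, whereas for Hadhb and Cpt2 all brown day 7 points lay above all white points.

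Acadm encodes medium-chain acyl-CoA dehydrogenase. Its signal in brown day 4 cells was 570, 677, 275, 276 and 177 on arrays 05, 06, 09, 10 and 19, and in brown day 7 cells 1550, 1560, 761, 988 and 1093 on arrays 07, 08, 11, 12 and 22. Every day 7 array was above every day 4 array, although arrays 05 and 06 were well above the other 3 day 4 arrays. The log2 difference was 1.72 ± 0.31 (SE; 3.29-fold, 95% interval 2.11 to 5.11; limma adjusted p = 0.000667), the largest of the 7 members. In white cells Acadm ran from 137 to 373 around a median of 262.5 at day 4 and from 540 to 1249 around 814 at day 7, again with no overlap. The white difference, 1.67 ± 0.27 (3.17-fold, 95% interval 2.18 to 4.63; limma adjusted p = 0.000175), was close to the brown one. The difference between the 2 changes was 0.05, with a 95% interval from -0.79 to 0.89 on the log2 scale, so that unequal changes of moderate size in either direction were within it.

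Acadl encodes the long-chain enzyme. It measured 133, 104, 77.8, 118 and 97.4 in brown day 4 cells and 297, 181, 94.8, 217 and 425 in brown day 7 cells, in the same order of arrays. Array 11 fell inside the day 4 range and array 22 lay far above it, so the groups overlapped. The difference was 1.05 ± 0.33 (2.07-fold; limma adjusted p = 0.0339). That call was lost when any 1 of 6 arrays was left out, with adjusted p of 0.0504 without array 06, 0.0943 without 09, 0.0665 without 19, 0.0939 without 07, 0.0655 without 12 and 0.0978 without 22. It was lost too with no filter on dim probe sets (0.0640) and with only the 2 groups in the fit (0.0577). White cells gave 53.3 to 203 (median 116) at day 4 and 122 to 261 (median 169) at day 7, and the difference of 0.60 ± 0.28 did not pass (limma adjusted p = 0.135).

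Acads, the short-chain enzyme, was measured by 2 probe sets that disagreed. The brighter one gave 277, 359, 197, 335 and 312 in brown day 4 cells and 433, 486, 300.2, 359 and 390 in brown day 7 cells, with array 11 inside the day 4 range and array 12 just above it. The difference was 0.42 ± 0.19 (limma adjusted p = 0.150). In white cells it measured 197 to 314 (median 246) at day 4 and 184 to 344 (median 234) at day 7, and the difference was 0.03 ± 0.16 (limma adjusted p = 0.931). The dimmer probe set ran between 140 and 248 over all 24 arrays and gave -0.06 ± 0.15 in brown and 0.13 ± 0.13 in white cells, neither of which passed. Acadvl, the very-long-chain enzyme of the inner membrane, reached at most 13.7 with one probe set and 24.1 with the other. Those values lay at or under that floor of 8.21 on 21 and 18 of the 24 arrays, so no level can be given for it.

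Hadhb carries the thiolase activity of the trifunctional protein. Signals were 1327, 1635, 873, 913 and 827 in brown day 4 cells and 3098, 3462, 1540, 2112 and 2406 in brown day 7 cells. Only array 11, at 1540, lay below the highest day 4 array, 06, at 1635. The difference was 1.18 ± 0.20 (2.26-fold, 95% interval 1.70 to 2.99; limma adjusted p = 0.000347). In white cells Hadhb rose from 504 to 661 (median 632) at day 4 to 623 to 1143 (median 887) at day 7, by 0.52 ± 0.17 (1.44-fold; limma adjusted p = 0.0318). The white call was lost without white day 4 array 51 (adjusted p = 0.0580) and without white day 7 arrays 36 (0.0649), 43 (0.0694) or 44 (0.0860).

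Hadh, which oxidizes short-chain hydroxyacyl-CoA in the matrix, did not pass between days in either cell type. It gave 1030, 1184, 715, 811 and 800 in brown day 4 cells and 1552, 1283, 839, 1234 and 1247 in brown day 7 cells, and all but array 11 of the day 7 arrays were above all day 4 arrays. The difference was 0.44 ± 0.25 (limma adjusted p = 0.280). In white cells the range was 359 to 867 (median 457) at day 4 and 417 to 1037 (median 672) at day 7, with a difference of 0.34 ± 0.21 (limma adjusted p = 0.281).

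Cpt2 is the inner-membrane carnitine palmitoyltransferase. It measured 1029, 1195, 962, 1016 and 1136 in brown day 4 cells and 1640, 1767, 1217, 1211 and 1570 in brown day 7 cells, and the 2 groups did not overlap although array 12, at 1211, was close to array 06, at 1195. The difference was 0.46 ± 0.15 (1.37-fold; limma adjusted p = 0.0385). The call was lost without day 4 arrays 05 (adjusted p = 0.0675), 09 (0.0969), 10 (0.0794) or 19 (0.0508), and without day 7 arrays 07 (0.0989), 08 (0.120) or 22 (0.0645). It was lost too with no filter (0.0519) and with no intensity trend (0.0599). White cells gave 619 to 855 (median 743) at day 4 and 622 to 1036 (median 954) at day 7; the 4 day 7 arrays 35, 36, 43 and 44 were above every day 4 array, while arrays 39 and 40, at 622 and 675, were inside the day 4 range. The white difference was 0.21 ± 0.13 (limma adjusted p = 0.254). All Cpt2 results here are from the brighter of its 2 probe sets. The other reached at most 16.7, lay at or under the floor on 22 of the 24 arrays and was not tested.

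Etfdh, which hands electrons from the electron transfer flavoprotein to ubiquinone, gave 240, 335, 129, 123 and 120 in brown day 4 cells and 460, 618, 316, 425 and 316 in brown day 7 cells. As for Acadm and Hadhb, arrays 05 and 06 were the highest of the day 4 group; only array 06 overlapped the day 7 range. The rise was 1.26 ± 0.29 (2.40-fold, 95% interval 1.59 to 3.62; limma adjusted p = 0.00441). In white cells Etfdh ran from 52.2 to 173 (median 108) at day 4 and from 123 to 203 (median 186) at day 7, a difference of 0.75 ± 0.25 (1.69-fold; limma adjusted p = 0.0332). The white call was lost without white day 4 arrays 38 (adjusted p = 0.0507), 42 (0.0640) or 51 (0.0708) and without white day 7 arrays 35 (0.0635), 36 (0.0650), 43 (0.0654) or 44 (0.0600).

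In white cells, then, 3 of the 7 tested members rose (Acadm, Hadhb and Etfdh) and none fell, where 8.36% of all probe sets passed as higher and 10.6% as lower. Only Acadm had no overlap of arrays, a separation that 2.23% of all probe sets showed in that direction. The median difference was 0.52 against 0.02 for all genes. All 3 white calls were lost with the Gapdh ratio in the fit: Acadm then stood at 1.26 ± 0.45 (limma adjusted p = 0.200), Hadhb at 0.56 (0.448) and Etfdh at 0.45 (0.742), while Acadl turned to -0.20. In that fit 0.441% of all probe sets were called in either direction, against 19% without the ratio, so calls were lost across the whole table. Without white day 4 arrays 45 and 51, which follow the last white day 7 array in number, Acadm alone was called (Hadhb adjusted p = 0.0740, Etfdh 0.0970). With no filter on dim probe sets Hadhb (0.0516) and Etfdh (0.0571) were also lost. The brown calls of Acadm, Hadhb and Etfdh held under each of the 14 alternative settings and with each of the 24 arrays left out in turn.

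The arrays were also divided by number into 7 runs, a grouping chosen here and not given by the labels. Brown cells had runs 05 to 08, 09 to 12, and 19 with 22. White cells had runs 33 to 36, 37 to 40 and 41 to 44, each with both days, and the day 4 arrays 45 and 51. Acadm was higher at day 7 in all 6 runs, by 1.32, 1.65 and 2.63 in brown and 1.41, 1.05 and 1.84 in white cells on the log2 scale. Hadhb was also higher in all 6, by 1.15, 1.02 and 1.54 in brown and 0.49, 0.27 and 0.74 in white cells. Etfdh was higher by 0.91, 1.54 and 1.41 in brown and 0.24, 0.61 and 1.02 in white cells. The brown run differences exceeded the white ones for Hadhb without exception, whereas for Acadm and Etfdh they overlapped. In the run of arrays 37 to 40, Acadl, Acads and Cpt2 were lower at day 7 by 0.08, 0.24 and 0.06. With the run as a fixed block in the fit, all 7 tested members passed as higher in brown cells, Acads with a limma adjusted p of 0.0369 and Hadh with 0.0447, where 19.2% of all probe sets were called in either direction against 12.1% without a block. With the run as a random block the same 5 as without a block passed, and Acads (0.0658) and Hadh (0.135) did not.

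**Figure D2:**
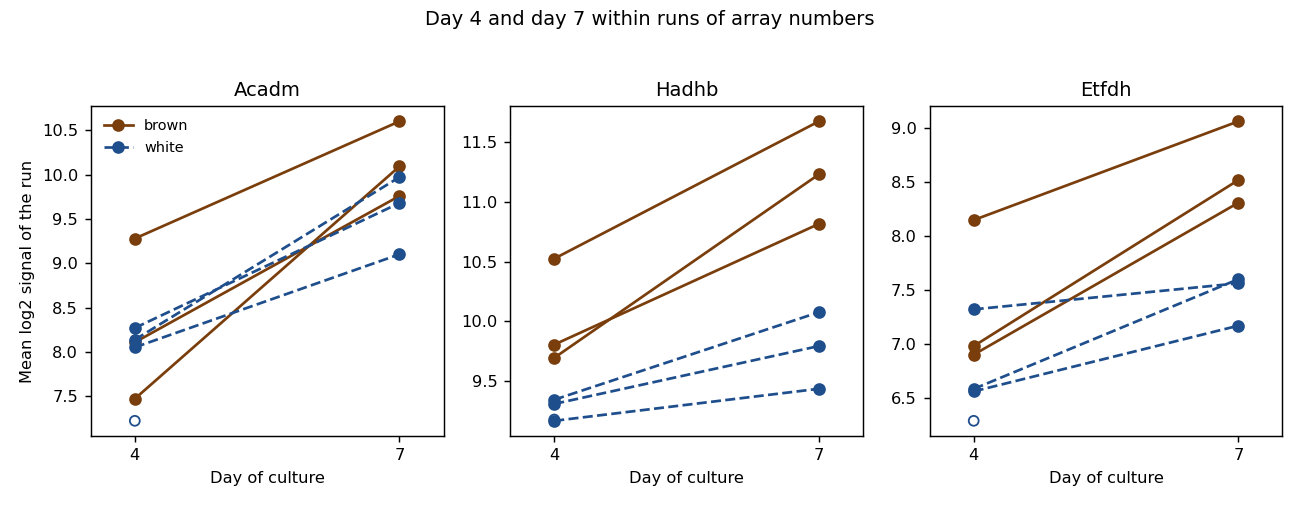
Mean log2 signal of Acadm, Hadhb and Etfdh at day 4 and day 7 of culture within each run of array numbers; a line joins the days of 1 run, solid for brown and dashed for white cells, and an open circle is the mean of white day 4 arrays 45 and 51, a run without day 7 arrays. All 6 lines rise for each of the 3 genes, and the brown Hadhb lines lie above the white ones.

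Acadm, Hadhb and Etfdh, the members that rose in both cell types, are shown here with the 250 bases before their RefSeq transcription start (GRCm38.p6), so that the genes that moved together can be compared in sequence. The Acadm stretch is chr3:153944644-153944893 on the minus strand, that of Hadhb chr5:30155003-30155252 on the plus strand and that of Etfdh chr3:79628768-79629017 on the minus strand. Capitals mark a core motif of nuclear receptors (AGGTCA) in Acadm, read on the opposite strand, and the GC boxes (GGGCGG) in Hadhb; Etfdh has no capitals, since its GC box lies after the start.
Acadm: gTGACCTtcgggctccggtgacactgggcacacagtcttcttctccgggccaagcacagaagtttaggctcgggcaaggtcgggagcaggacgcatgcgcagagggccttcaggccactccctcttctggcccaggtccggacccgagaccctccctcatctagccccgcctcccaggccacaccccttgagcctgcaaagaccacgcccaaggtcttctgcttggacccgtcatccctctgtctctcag
Hadhb: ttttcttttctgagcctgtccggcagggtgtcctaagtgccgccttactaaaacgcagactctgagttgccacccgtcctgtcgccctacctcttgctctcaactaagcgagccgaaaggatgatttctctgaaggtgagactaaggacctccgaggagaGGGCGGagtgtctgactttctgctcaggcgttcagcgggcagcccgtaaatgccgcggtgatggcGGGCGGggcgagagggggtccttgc
Etfdh: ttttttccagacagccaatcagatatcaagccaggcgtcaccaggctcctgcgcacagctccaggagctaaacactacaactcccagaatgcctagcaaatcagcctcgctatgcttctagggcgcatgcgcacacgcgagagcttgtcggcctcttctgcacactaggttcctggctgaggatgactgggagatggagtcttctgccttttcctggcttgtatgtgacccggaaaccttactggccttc

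A window was in the RefSeq table for 9 of the 10 members, of 300 bases each (250 before the start and 50 after). The motifs were searched on both strands. GGGCGG lay in 7 of the 9 windows (Acadl, Acads, Hadha, Hadhb, Hadh, Cpt2 and Etfdh), against 35.7% of all 32851 windows of that length. The core motif AGGTCA lay in 2 (Acadm and Acadvl), against 16.3% of all windows; it is part of the longer estrogen-related receptor site TCAAGGTCA, which lay in none of the 9 and in 0.423% of all. CCAAT lay in Hadh and Etfdh (37.4% of all windows) and TATAAA in none (13.6%). A direct repeat of AGGTCA with 1 base between, the form that peroxisome proliferator-activated receptors are known to bind, was in none of the 9, exactly (0.0396% of all windows) or with up to 2 mismatches (3.86%). Hadha and Hadhb lie head to head on opposite strands of chromosome 5, with 272 bases between their starts, and their windows share 228 bases. The only GGGCGG of the Hadha window lies in the shared bases. It is the same site as the Hadhb box at -90 to -85 and was counted for both genes. These matches describe letters in the windows, and nothing was measured at them here.

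At day 4, brown cells already had more signal than white cells for 4 of the 7 tested members, Hadhb, Hadh, Cpt2 and Etfdh, and less for none. Of all probe sets, 10.8% passed as higher in brown cells and 12.2% as lower. The median of the 7 differences was 0.53 against 0.01 for all genes. Hadhb differed by 0.82 ± 0.18 (1.77-fold; limma adjusted p = 0.00134) and Hadh by 0.82 ± 0.22 (1.76-fold; 0.00883). Cpt2 differed by 0.52 ± 0.13 (1.43-fold; 0.00519). Brown and white arrays did not overlap for Hadhb and Cpt2: the lowest brown values, 827 and 962, were above the highest white ones, 661 and 855, a separation that 3.32% of all probe sets showed in that direction.

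The day 4 difference of Etfdh, 0.74 ± 0.26 (limma adjusted p = 0.0401), was close to the threshold. It was lost with the run as a random block (0.71; adjusted p = 0.0671), with no filter (0.0689), with no intensity trend (0.0531) and with only the 2 groups in the fit (0.0966). It was also lost without brown arrays 05 (adjusted p = 0.123) or 06 (0.179), and without white arrays 37 (0.0596), 38 (0.0640), 42 (0.0692) or 51 (0.0701). Leaving out white arrays 45 and 51 together lost it too (0.61 ± 0.26, limma adjusted p = 0.0774). The chain-length dehydrogenases did not pass at day 4: Acadm was at 0.53 ± 0.28 (0.184), Acadl at -0.12 ± 0.29 (0.821) and Acads at 0.27 ± 0.17 (0.268). Acadm passed at day 4 without brown array 19, its lowest brown array (0.77; limma adjusted p = 0.0443).

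At day 7, 5 of the 7 tested members were higher in brown than in white cells (Hadhb, Etfdh, Hadh, Cpt2 and Acads), where 12.8% of all probe sets passed as higher and 12.3% as lower, and none of the 7 was lower. The median difference was 0.77 against 0.00 for all genes. Hadhb had the largest difference, 1.48 ± 0.19 (2.79-fold, 95% interval 2.13 to 3.65; limma adjusted p = 1.91e-06); its lowest brown array, at 1540, was above the highest white array, at 1143. Etfdh followed with 1.25 ± 0.28 (2.37-fold; 0.00151), the brown range of 316 to 618 lying above the white range of 123 to 203. Cpt2 differed by 0.77 ± 0.14 (1.70-fold; 0.000212), the lowest brown array at 1211 and the highest white one at 1036. Of all probe sets, 8.71% had brown arrays all above white arrays, as these 3 members did. Hadh differed by 0.92 ± 0.24 (1.89-fold; 0.00525) with overlap.

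Acads differed by 0.66 ± 0.18 at day 7 (1.59-fold; limma adjusted p = 0.00697) with the brighter probe set only. The other gave -0.17 ± 0.14 (0.430), and their mean 0.25 ± 0.12 (0.119). Acadm, at 0.58 ± 0.30 (0.161; 95% interval -0.03 to 1.19), and Acadl, at 0.33 ± 0.31 (0.484; -0.31 to 0.98), did not pass, but their intervals reach well above 0 and do not show equal levels. With the Gapdh ratio in the fit, 1 of the 7 (Hadhb) was still called at day 7, where 3.26% of all probe sets were called in either direction against 25.2% without the ratio. The estimates of the others were 0.53 for Acads (adjusted p = 0.424), 1.10 for Hadh (0.151), 0.79 for Cpt2 (0.0763) and 1.60 for Etfdh (0.0664).

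**Figure D3:**
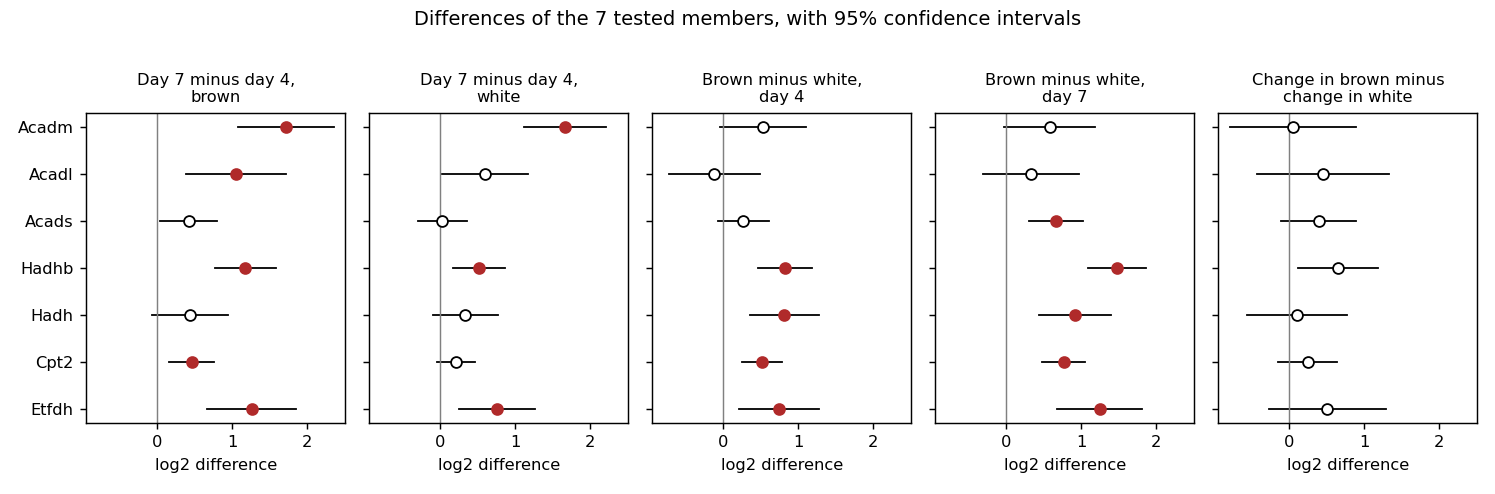
Log2 differences of the 7 tested members with their 95% intervals for day 7 against day 4 in each cell type and for brown against white cells on each day. Filled points passed the limma test; Acadm led both day comparisons and Hadhb led brown against white cells at day 7.

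Whether the rise from day 4 to day 7 differed between brown and white cells was tested directly. In limma, 0 of the 7 members passed, where 0.214% of all probe sets did, and 1 (Hadhb) had an unadjusted p under 0.05. The brown rise exceeded the white one by 0.65 ± 0.26 for Hadhb (95% interval 0.12 to 1.19; limma adjusted p = 0.454). For the other 6 members the estimates ran from 0.05 (Acadm) to 0.51 (Etfdh), all with intervals that hold 0. No alternative setting and no left-out array gave a call among the 7. The larger number of calls in brown cells is therefore not shown to be a difference between the cell types.

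The members ranked the groups in a similar but not identical way. In mean log2 signal, brown day 7 was the highest group for all 7. Hadhb, Hadh, Cpt2 and Acads put both brown groups above both white groups, whereas Acadm, Acadl and Etfdh put white day 7 above brown day 4. For Etfdh that gap was 0.012, against an SD of 0.676 in the more variable group, so these 2 groups were not separated. Between neighbouring groups in these orders only 2 steps had no overlap of arrays: brown day 4 to brown day 7 for Cpt2 and white day 7 to brown day 7 for Etfdh. The ranks of Acads use its brighter probe set.

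Across the 24 arrays each member was set against the mean of the other 6 (z-scored log2 signals). Pearson's r was 0.954 for Hadhb, 0.869 for Etfdh, 0.855 for Hadh, 0.855 for Cpt2, 0.812 for Acadm, 0.764 for Acads and 0.491 for Acadl. Brown day 7 array 08 was the highest of all arrays for Acadm, Acads, Hadhb, Cpt2 and Etfdh. The genes outside the set closest to the mean of the 7 were Pdhb, a subunit of pyruvate dehydrogenase (r = 0.968), Bckdhb of the branched-chain ketoacid dehydrogenase (0.948), Fh1, fumarase (0.934), Etfa (0.932), Uqcrh of respiratory complex III (0.929), Dnajc15 (0.927), Coq9 (0.925), Ndufb5 (0.924), Cox7a1 (0.924) and Ndufb3 (0.922). These values are descriptions over 24 arrays that share the 4 groups and the runs.

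The other mitochondrial beta-oxidation enzymes, a list of 14 tested genes that also holds the propionate enzymes Pccb, Mmut and Mcee, also had calls in the higher direction only. In brown cells 9 of the 14 rose and none fell, and in white cells 5 rose and none fell. Their medians were 0.71 and 0.28, against 0.02 for all genes in each. Among all probe sets 6% rose and 6.05% fell in brown cells, and 8.36% rose and 10.6% fell in white cells. Hsd17b10, a hydroxyacyl-CoA dehydrogenase, had estimates below 0 in both (-0.23 and -0.31), as had Etfb (-0.19) and Ech1 (-0.08) in white cells, and none of these passed. Etfa, the alpha subunit of the electron transfer flavoprotein that passes electrons to Etfdh, rose by 1.04 ± 0.21 in brown (limma adjusted p = 0.00172) and 0.72 ± 0.18 in white cells (0.00651). Acot13, an acyl-CoA thioesterase, rose by 1.15 ± 0.27 in brown (0.00573) and 0.85 ± 0.23 in white cells (0.0117), and Mmut, methylmalonyl-CoA mutase, by 1.13 ± 0.28 (0.00708) and 1.09 ± 0.24 (0.00233).

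Of the same 14 genes, 5 were higher in brown cells at day 4 and 8 at day 7, and none was lower. The shares of all probe sets were 10.8% higher and 12.2% lower at day 4, and 12.8% and 12.3% at day 7. Acaa2, the mitochondrial thiolase of medium-chain substrates, was higher by 0.73 ± 0.20 at day 4 (limma adjusted p = 0.00772) and 1.01 ± 0.21 at day 7 (0.000721). Etfb, the beta subunit of the flavoprotein, was higher by 0.63 ± 0.20 (0.0214) and 1.0 ± 0.21 (0.000815) and did not pass between days. Ech1, a dienoyl-CoA isomerase, was higher at day 7 by 1.07 ± 0.20 (0.000249). With the Gapdh ratio in the fit the counts became 9 in brown and 0 in white cells between days, and 3 at day 4 and 0 at day 7 between cell types. Of all probe sets, 12.4%, 0.441%, 21.7% and 3.26% were called in that fit, in the same order, so calls were lost across the whole table. Without white day 4 arrays 45 and 51 the white count was 2.

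The steps before the matrix had calls in both directions between cell types at day 7. Of 9 tested genes of fatty acid activation and the carnitine shuttle, 4 rose in brown and 2 in white cells. Among all probe sets 6% and 8.36% rose. Between cell types 0 were higher and 1 lower in brown at day 4, and 2 higher and 3 lower at day 7. The shares of all probe sets were 10.8% higher and 12.2% lower at day 4, and 12.8% and 12.3% at day 7. Cpt1a, the liver form of the outer-membrane carnitine palmitoyltransferase, had brown medians of 401 and 296 at days 4 and 7 and white medians of 609 and 459. It was lower in brown cells at both days, at -0.76 ± 0.15 (limma adjusted p = 0.000534) and -0.66 ± 0.16 (0.00283), with no overlap of arrays, opposite in direction to Cpt2. Slc25a20, the carnitine-acylcarnitine translocase, rose in brown cells by 0.77 ± 0.18 (0.00503) and was higher in brown than white cells at day 7 by 0.86 ± 0.17 (0.000516). Its difference of changes, 0.70 ± 0.24, did not pass (0.304).

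Fatty acid carriers of that list were among the called genes. Fabp3, a cytosolic fatty acid binding protein, rose by 1.85 ± 0.47 in brown cells (limma adjusted p = 0.00865), and Slc27a1, a fatty acid transporter, by 1.56 ± 0.44 (0.0182). In white cells Slc27a1 rose by 2.55 ± 0.37 (7.95e-05) and Cd36, the fatty acid translocase, by 1.17 ± 0.34 (0.0181). Day 4 signals were dim: Slc27a1 ran from 8.145 to 50.8 around a median of 12.05 in brown cells. In white day 4 cells the medians were 21.0 for Slc27a1 and 21.2 for Cd36. The sizes of these rises are therefore uncertain. At day 7 Fabp3 was higher in brown than white cells (1.64 ± 0.445, limma adjusted p = 0.00769). Slc27a1 was lower in brown cells (-1.60 ± 0.42, 0.00589) and Acsl4, an acyl-CoA synthetase, was also lower (-0.91 ± 0.28, 0.0167). With the Gapdh ratio in the fit the list had 4 calls in brown and 0 in white cells between days, and 1 at day 4 and 0 at day 7 between cell types. Of all probe sets, 12.4%, 0.441%, 21.7% and 3.26% were called in that fit, in the same order. Without white day 4 arrays 45 and 51 the list had 1 call in white cells.

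**Figure D4:**
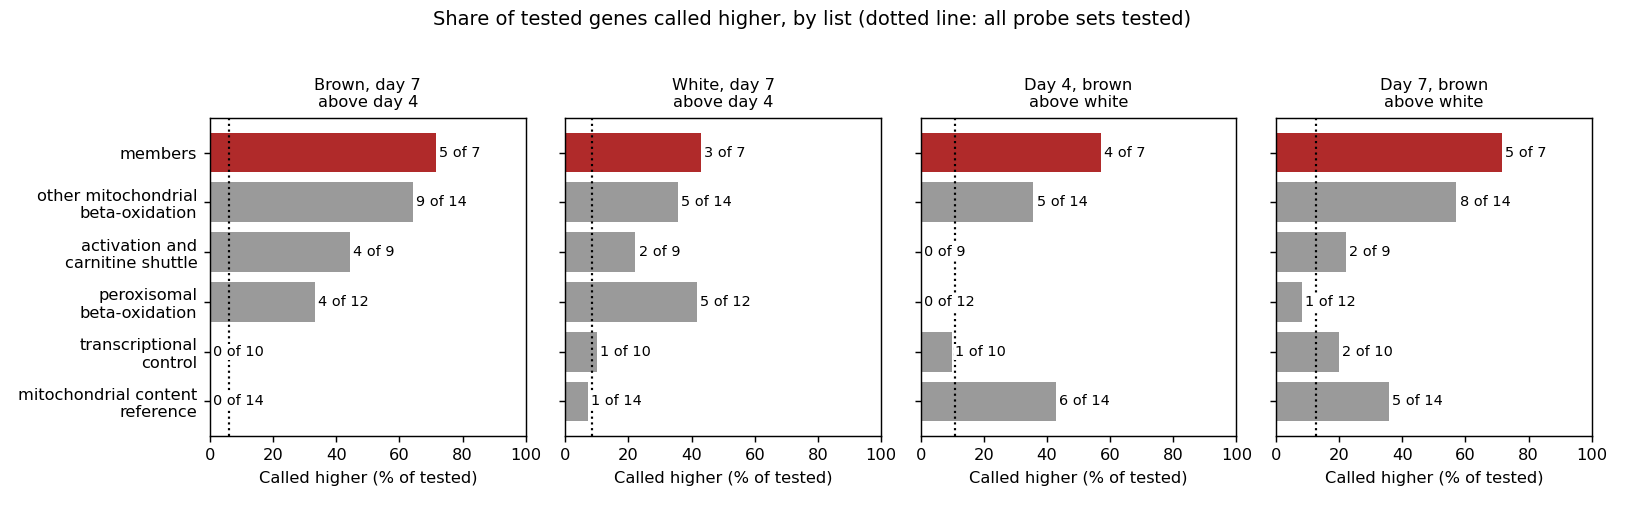
Share of tested genes called higher (percent) among the members (red) and in each related gene list (grey), in 4 comparisons; the dotted line is the share of all probe sets called higher. Of the members 3 to 5 of 7 were called. The mitochondrial content reference had 0 of 14 called higher between days in brown cells and 1 in white cells. Between cell types it had 6 of 14 called higher in brown cells at day 4 and 5 at day 7.

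Peroxisomal beta-oxidation shortens very long chains outside the mitochondrion. Of its 12 tested genes, 4 rose in brown cells, and 5 rose and 1 fell in white cells. Among all probe sets 6% rose in brown cells, and 8.36% rose and 10.6% fell in white cells. Between cell types 1 of the 12 was lower in brown at day 4, and 1 was higher and 1 lower at day 7. The shares of all probe sets were 10.8% higher and 12.2% lower at day 4, and 12.8% and 12.3% at day 7. Acaa1b, the peroxisomal thiolase, rose by 1.11 ± 0.26 in brown (limma adjusted p = 0.00582) and 1.18 ± 0.23 in white cells (0.000813). Hsd17b4, the peroxisomal bifunctional protein, rose by 0.93 ± 0.14 in white cells (9.02e-05) without overlap. Phyh had the largest called difference of the list in brown cells, 1.35 ± 0.24 (limma adjusted p = 0.000522). Acot8 fell in white cells (-0.98 ± 0.29, 0.0176) and was higher in brown than white cells at day 7 (1.265 ± 0.32, 0.00477). Pex11a, a peroxisome division protein, was lower in brown cells at both days (-0.89 ± 0.24 and -1.06 ± 0.26; 0.00824 and 0.00302). With the Gapdh ratio in the fit 4 were called in brown and 0 in white cells between days, where 12.4% and 0.441% of all probe sets were. Without white day 4 arrays 45 and 51 the white count was 3.

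Of nuclear receptors and cofactors known to control these genes, 10 were tested. In limma 0 of the 10 passed between days in brown cells, where 1 (Ncoa1) had an unadjusted p under 0.05. In white cells 1 passed: Pparg, the adipogenic receptor, rose (0.63 ± 0.19, limma adjusted p = 0.0239). Of all probe sets, 12.1% were called in either direction in brown and 19% in white cells. Whether the counts of this list differ from those shares was not tested. Pparg was higher in brown cells at day 4 (1.17 ± 0.20; 0.000150) and day 7 (0.91 ± 0.22; 0.00272), and Esrra, estrogen-related receptor alpha, at day 7 (0.81 ± 0.22; 0.00762). Between cell types 1 of the 10 was higher and 4 lower in brown at day 4, and 2 were higher and 4 lower at day 7. Of all probe sets, 10.8% were higher and 12.2% lower at day 4, and 12.8% higher and 12.3% lower at day 7. The orphan receptors Nr2f1 and Nr2f2 and the corepressor Nrip1 were lower in brown cells at day 4, at -2.02 ± 0.27, -1.30 ± 0.33 and -1.24 ± 0.30, and at day 7, at -1.26 ± 0.29, -1.57 ± 0.35 and -1.70 ± 0.31. The coactivator Ncoa1 was lower as well, at -1.21 ± 0.32 (0.00709) and -1.0 ± 0.34 (0.0309). Brown medians at days 4 and 7 were low for Nrip1 (23.2 and 26.0), Nr2f1 (23.0 and 31.8) and Ncoa1 (16.5 and 26.3). White medians were 64.2 and 88.0 for Nrip1, 109.5 and 82.9 for Nr2f1 and 39.2 and 57.3 for Ncoa1. Nr2f2 had brown medians of 95.7 and 106. The filter could keep a gene bright in white cells alone, so the count of lower genes is not independent support. Ppara, the receptor best known for these genes in liver, had group medians of 37 to 41 and passed in no comparison. Ppargc1a, the coactivator of brown fat, had group medians of 4.95 to 10.8 and was not tested. At day 7, 1 of the 10 was called with the Gapdh ratio in the fit, where 3.26% of all probe sets were. In white cells without arrays 45 and 51 none of the 10 was.

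Mitochondrial genes of import, chaperones and structure served as a reference for mitochondrial content. Between days 0 of 14 rose and 1 fell in brown cells, and 1 rose and 2 fell in white cells, with medians of -0.11 and -0.02. Between cell types 6 were higher and 2 lower in brown at day 4, and 5 higher and 2 lower at day 7. The medians were 0.43 and 0.34, against medians of 0.53 and 0.77 for the 7 members. Among all probe sets 6% rose and 6.05% fell in brown cells, and 8.36% rose and 10.6% fell in white cells. Between cell types 10.8% of them were higher and 12.2% lower in brown at day 4, and 12.8% and 12.3% at day 7. Hspa9 had the largest called difference of the list at day 4, 1.115 ± 0.185 higher in brown cells. Hspd1, a matrix chaperonin, was higher in brown cells by 0.89 ± 0.21 and 0.87 ± 0.22 at days 4 and 7. Vdac2, an outer-membrane channel, was lower, at -0.80 ± 0.17 and -0.77 ± 0.18. Whether the members differ from this list was not tested. With the Gapdh ratio in the fit, 9 of the 14 were called at day 4 and 0 at day 7, where 21.7% and 3.26% of all probe sets were.

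Of 4 tested genes of malonyl-CoA control, Mlycd, which removes malonyl-CoA, rose in white cells by 0.40 ± 0.12 (limma adjusted p = 0.0244) and Prkag1, a subunit of AMP-activated protein kinase, was lower in brown cells at both days (-0.43 ± 0.12 and -0.35 ± 0.13; 0.00927 and 0.0432). Of 5 genes of ketone body and acetyl-CoA handling, 3 rose and 1 fell in brown cells, where 6% of all probe sets rose and 6.05% fell. Pdk4, which restrains pyruvate oxidation, rose there by 1.51 ± 0.33 (0.00272) and was higher in brown than white cells at day 7 by 1.51 ± 0.31 (0.000794) without overlap. Oxct1, which activates ketone bodies, rose by 0.89 ± 0.18 in brown (0.00158) and 0.75 ± 0.15 in white cells (0.00133), without overlap in either.

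Marker genes of some other cell types also differed between the brown and white labels. In bulk RNA, other cells in the culture and expression by the adipose cells themselves cannot be told apart. The summed signal of 22 striated muscle genes, a tissue that also expresses the members, was 2655 to 3925 in brown day 4, 1962 to 2529 in brown day 7, 934 to 1409 in white day 4 and 1115 to 1745 in white day 7 arrays. Of the 17 tested, 10 were higher in brown cells at day 4, and 7 were higher and 1 lower at day 7. The shares of all probe sets were 10.8% higher and 12.2% lower at day 4, and 12.8% and 12.3% at day 7. Between days in brown cells 1 of the 17 rose and 3 fell, where 6% of all probe sets rose and 6.05% fell. The muscle sum was lower on every brown day 7 array than on any brown day 4 array. Its part in the changes between days and in the brown against white differences was not tested. The 10 endothelial genes summed to 1778 to 3038, 1727 to 2340, 1406 to 2078 and 1440 to 1889 in the same order of groups. On each day 4 of 8 tested were higher in brown cells, with 1 lower at day 7. The shares of all probe sets are those given for the muscle genes.

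Macrophage genes went the other way. The 15 on the array summed to 612 to 723 in brown day 4, 711 to 948 in brown day 7, 718 to 1851 in white day 4 and 979 to 1588 in white day 7 arrays. Of 10 tested, 3 were lower in brown cells at day 4 and 5 at day 7, where 12.2% and 12.3% of all probe sets were lower. Itgam and Aif1 were at the floor on every array. Of the hepatocyte genes 2 were tested and none was called, with sums between 82.4 and 189 over all arrays.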

How the data were processed

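The authors deposited 1 linear signal intensity per probe set and array, from MAS5 (per the submitters' processing notes; no version or settings). The 12488 probe sets had medians of 41.9 to 59.0 per array, and the arrays' number limits the precision.

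Here every array was scaled to a 2% trimmed mean of 150, a floor was set at the 20th percentile over all arrays (8.21), and log2 was taken. Control probe sets were dropped, as was any probe set that exceeded its array's 40th percentile on fewer than 5 arrays, leaving 8397. limma 3.58.1 (R 4.3.3) fitted the 4 group means over 24 arrays with an intensity trend (20 residual degrees of freedom), for 5 contrasts; p-values were adjusted by Benjamini-Hochberg within each. The brightest tested probe set stands for a gene. Symbols come from the platform annotation (10855 probe sets with 1 symbol, 396 with several, 1237 with none). The fit was tested on simulated data.

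All members are named. Of each other list, up to 3 called genes with the largest differences per contrast and 10 preset genes were set to be named, but not all of the former are given. Further list genes (Slc25a20, Esrra, Pparg, Hsd17b10 and Ncoa1 among them) were named after their values were seen. Members and lists were chosen with earlier results of these data known. The alternatives were other scaling, floors, filters, probe set rules, moderation, array weights, fits of 2 groups, the Gapdh ratio as a covariate, array-number runs as blocks and left-out arrays. Promoter windows are from RefSeq (GRCm38.p6).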

Additional observations from a re-analysis of the deposited data

How the results depend on the processing

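The groups share no replicate numbers in the labels, so arrays could not be paired by number. Runs of array numbers were used as a block instead. With a fixed block 7 members were called between days in brown and 3 in white cells. Of all probe sets, 19.2% and 17.1% were called in either direction in that fit. With a random block 5 and 3 members were called, against 16.8% and 21% of all probe sets. Between cell types the random block gave 3 members at day 4 and 5 at day 7, against 17.7% and 18.4%. Of the 7 tested members, the number called between days in brown cells was 5, where 12.1% of all probe sets were called. It became 3 with no filter on dim probe sets, where 878 of 12039 probe sets were called. It ranged from 3 to 5 with 1 array left out, at 3 without brown day 4 arrays 09 or 19 or brown day 7 arrays 07 or 22. In white cells it was 3, where 19% of all probe sets were called. It became 1 with no filter (1405 of 12039 probe sets called) and 0 with the Gapdh ratio as a covariate (0.441% called). Without white day 4 arrays 45 and 51 it was 1 (1053 of 8331 probe sets called). It ranged from 1 to 3 with 1 array left out, at 1 without array 51, 36, 43 or 44. For brown against white it was 4 at day 4 (23% of all probe sets called), ranging from 3 to 5 with 1 array left out. At day 7 it was 5 (25.2% called), staying at 5 with 1 array left out and becoming 1 with the Gapdh ratio (3.26% called). With the Gapdh ratio in the fit the SE of Acadm in white cells was 0.448, against 0.265 without it. Signs turned only for values that had not passed. Acadl in white cells became -0.196 and Acadl at day 4 became 0.021 with the Gapdh ratio, and the Acadm difference of changes became -0.012 with array weights. With 1 array left out, that Acadm value ranged from -0.195 to 0.289, Acads in white cells from -0.071 to 0.109, Acadl at day 4 from -0.275 to 0 and the Hadh difference of changes from -0.024 to 0.239. The counts of the other lists under 2 alternatives were added after the values were seen. MAS5 signals near background, as for Acadvl, set no level.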
